A study of Rattus norvegicus with 17 samples.

Results

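The mitochondrial genome of the rat encodes 7 subunits of complex I, and the genes for them are Mt-nd1, Mt-nd2, Mt-nd3, Mt-nd4, Mt-nd4l, Mt-nd5 and Mt-nd6. They were taken by Ensembl identifier from the 26402 genes of the count table, and all 7 were present. The table names genes by identifier only, and the symbols used here were given with the list of identifiers. RNA was sequenced from the CA1/CA2 region of the left ventral hippocampus, without the dentate gyrus and alveus, of male Fischer-344 rats aged 12 months. Of 17 rats, 10 received vehicle (polyethylene glycol) and 7 received enzastaurin (ENZ), an inhibitor selective for protein kinase C beta, at 25 mg/kg suspended in the same vehicle. Each animal had 3 daily subcutaneous injections during maze testing and was killed right after the last trial. Every rat, vehicle rats included, had therefore been through the maze. Rats carry the names of the labels, G1 for vehicle or G2 for ENZ followed by a number.

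Complex I (NADH:ubiquinone oxidoreductase) passes electrons from NADH to ubiquinone and pumps protons across the inner mitochondrial membrane, the entry step of the respiratory chain on which neurons depend for most of their ATP. The subunits encoded in mitochondrial DNA form the core of its membrane arm, and the other subunits come from nuclear genes. Mitochondrial genes are transcribed as long polycistronic RNAs that are then cut apart. Mt-nd6 is read from the light strand and the other members from the heavy strand. Mt-nd4l and Mt-nd4 overlap and remain together on a single mature mRNA. Reads in that overlap, and reads that match copies of mitochondrial sequence in the nuclear genome, may be split or lost in counting, and how they were treated is not given in the sources used here.

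Whole reads could be recovered from the deposited values. Vehicle rat G1_80 had 33422 reads on genes, against 2716777 to 20731523 in the other 16 rats, and a single read in it was worth 103.4 normalized counts. Results are therefore given for 16 rats (9 vehicle, 7 ENZ), and then with rat G1_80. In the 16 rats, mean log10 reads was 6.91 in vehicle and 6.78 in ENZ (two-sided exact permutation test, p = 0.283). Hba2, an alpha-globin gene, was the only marker of another cell type that could be matched to an identifier. It had 191.3 to 799.8 normalized counts in vehicle (mean 404.7 ± 164.9, SD) and 251.7 to 379.5 in ENZ (mean 297.3 ± 45.1, SD). The paper lists Hba2 among its top genes by uncorrected p-value, with no gene significant after correction. Other marker genes of the tissue were not analysed here.

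The 7 genes together took 3.08% to 5.07% of all reads in the vehicle rats and 3.36% to 6.32% in the ENZ rats. The means were 4.16% ± 0.82 (SD, n = 9) and 4.56% ± 0.91 (SD, n = 7). The lowest share was in vehicle rat G1_44 (3.08%, Wilson 95% interval 3.07% to 3.09%) and the highest in ENZ rat G2_152 (6.32%, 6.30% to 6.34%). These intervals cover counting error only. Counting error was thus far smaller than the spread between rats, and every member had at least 3934 reads in each of the 16 rats. In a bulk sample, fewer cells rich in mitochondrial RNA and less of that RNA per cell cannot be told apart.

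Levels below are normalized counts, the reads of a gene divided by a size factor for the rat. Reads grow with the length of a gene, and lengths were not used here, so levels are compared between rats and not between genes.

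Mt-nd1 (ENSRNOG00000030644) encodes the subunit that joins the membrane arm to the peripheral arm and helps form the ubiquinone channel. Its level was at 34043 to 57535 in vehicle (median 53715) and 40118 to 71779 in ENZ (median 49476). The means were 47665 ± 9674 (SD, n = 9) and 52305 ± 9876 (SD, n = 7), so ENZ was the higher by its mean and the lower by its median. Of the 9 vehicle rats, 3 lay below the lowest ENZ rat, and 1 ENZ rat lay above every vehicle rat.

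Mt-nd3, Mt-nd4l and Mt-nd6 encode small subunits that lie in the membrane arm between the Mt-nd1 product and the pumping subunits. Mt-nd3 (ENSRNOG00000033615) was at 4481 to 8386 in vehicle (median 7278) and 5220 to 9654 in ENZ (median 6912). Its means were 6777 ± 1511 (SD, n = 9) and 7153 ± 1358 (SD, n = 7), the smallest relative difference of the 7 genes. Mt-nd4l (ENSRNOG00000031053) was at 5924 to 11207 in vehicle (median 8808) and 6510 to 13261 in ENZ (median 9013), with means of 8534 ± 2203 (SD, n = 9) and 9389 ± 2237 (SD, n = 7). Its median, unlike that of Mt-nd3, was higher in ENZ. Mt-nd6 (ENSRNOG00000029042) was at 5146 to 9514 in vehicle (median 8791) and 5810 to 14513 in ENZ (median 8500). Its means, 7708 ± 1759 (SD, n = 9) and 9073 ± 2661 (SD, n = 7), differed by 17.7%, the largest relative difference of the 7, while its medians differed the other way. Its reads need care, because without strand information they cannot be told from heavy-strand RNA that crosses the same place, and the strand setting of the counting is not given in the sources used here.

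Mt-nd2, Mt-nd4 and Mt-nd5 encode the large antiporter-like subunits, which carry the proton-pumping channels. Mt-nd2 (ENSRNOG00000031033) was at 39724 to 72092 in vehicle (median 60051) and 44436 to 92401 in ENZ (median 62878), with means of 56259 ± 12706 (SD, n = 9) and 63484 ± 14598 (SD, n = 7). Mt-nd4 (ENSRNOG00000029707) was at 41006 to 74582 in vehicle (median 63295) and 44206 to 93761 in ENZ (median 62214), with means of 58236 ± 12814 (SD, n = 9) and 64630 ± 15184 (SD, n = 7). Mt-nd5 (ENSRNOG00000029971) was at 25043 to 42629 in vehicle (median 40066) and 26763 to 58234 in ENZ (median 38029), with means of 35017 ± 7487 (SD, n = 9) and 38898 ± 9841 (SD, n = 7). Each difference of means was smaller than the SD of either group, and medians were higher in ENZ for Mt-nd2 and lower for Mt-nd4 and Mt-nd5.

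**Figure D1:**
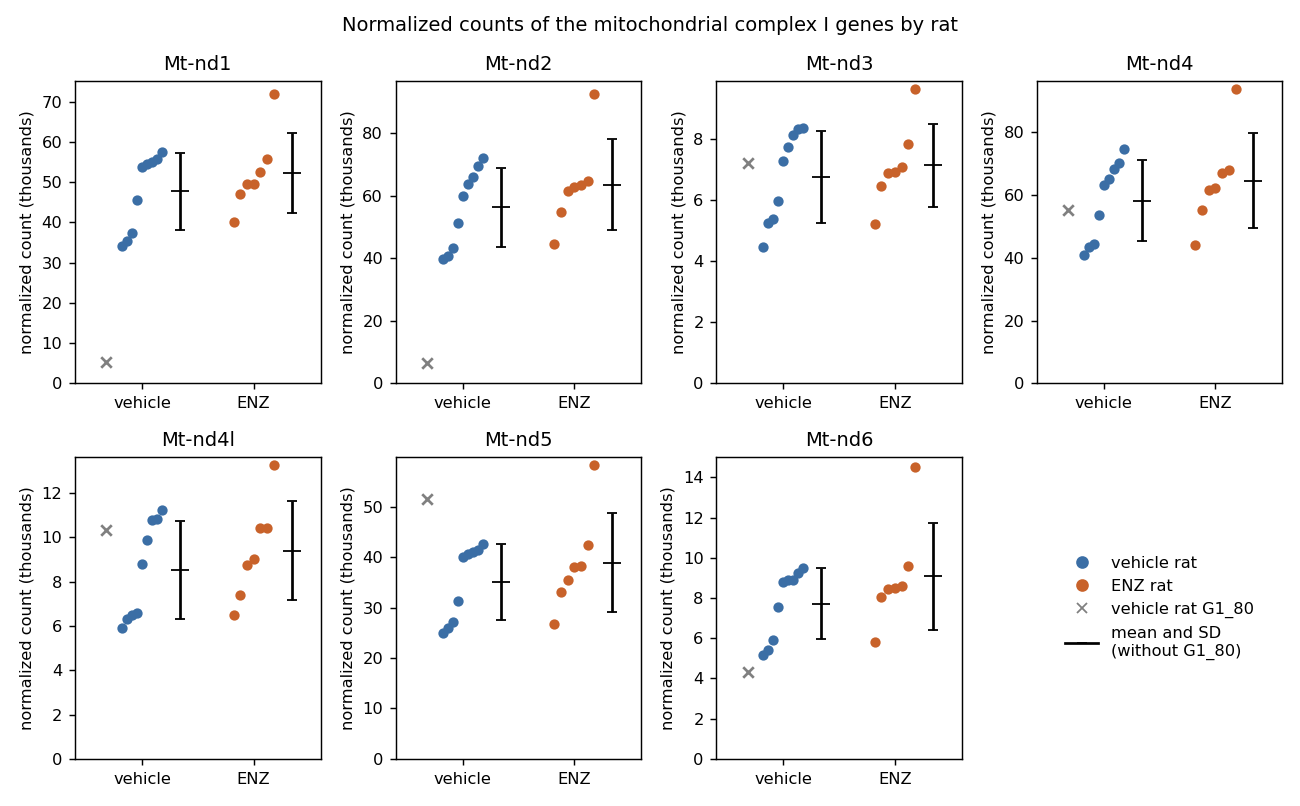
Normalized counts (in units of 1000, y axis from 0) of each gene in every rat, vehicle in blue and ENZ in orange, with the mean and SD of 9 vehicle and 7 ENZ rats as black bars and vehicle rat G1_80 as a grey cross. The groups overlap in every panel, ENZ rat G2_152 is the highest of the orange points throughout, and the grey cross lies far below the other vehicle rats for Mt-nd1 and Mt-nd2 only.

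The same rats stood at the ends of the range for gene after gene. ENZ rat G2_152 was the highest of the 16 rats for 7 of 7 genes, and ENZ rat G2_62 was the lowest ENZ rat for 7 of 7. The lowest of the 16 was always a vehicle rat, G1_44 for 4 genes, G1_53 for 2 and G1_18 for Mt-nd4l. The highest vehicle rat was G1_89 for 3 genes, G1_134 for 3 and G1_107 for Mt-nd4l. Apart from ENZ rat G2_152, the only ENZ value above every vehicle rat was that of rat G2_161 for Mt-nd6 (9583 against 9514 in rat G1_134).

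ENZ was compared with vehicle to ask whether the drug changed transcript levels. In a limma-trend fit to log2(normalized count + 1), 0 of the 7 genes passed an adjusted p-value of 0.05, as did 0 of all 13853 genes tested (0%). Without adjustment, a p-value under 0.05 was reached by 0 of the 7 and by 324 of all genes (2.34%, 172 of them lower in ENZ, where scaling to total reads gave 267 lower of 352). By the mean log2 value, 7 of 7 genes were higher in ENZ, against 48.1% of all genes tested. By the median normalized count, 2 of 7 were higher and 5 of 7 lower, against 50.3% of all genes higher. Since the members moved together from rat to rat, as described below, neither count is made of separate observations. The ranges of the groups overlapped for 7 of 7 members, and of all genes tested 1 did not overlap (0.00722%).

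The log2 fold changes of ENZ over vehicle, with limma 95% intervals, were as follows. For Mt-nd1 the difference was 0.14 (standard error 0.15, interval -0.17 to 0.45), and all 11440 splits of the rats, enumerated in an exact permutation test (two-sided), gave p = 0.350. Mt-nd3 had the smallest difference, 0.09 (standard error 0.14, interval -0.20 to 0.39, exact permutation p = 0.573). That of Mt-nd4l was 0.15 (standard error 0.16, interval -0.20 to 0.49, exact permutation p = 0.433), and the partner on its mRNA, Mt-nd4, gave 0.15 (standard error 0.17, interval -0.20 to 0.50, exact permutation p = 0.380). Among the other antiporter-like genes, Mt-nd2 gave 0.18 (standard error 0.16, interval -0.17 to 0.52, exact permutation p = 0.303) and Mt-nd5 gave 0.15 (standard error 0.16, interval -0.19 to 0.48, exact permutation p = 0.397). Mt-nd6 had the largest difference, 0.22 (standard error 0.17, interval -0.12 to 0.57, exact permutation p = 0.271). The median over the 7 was 0.15, where the median over all genes tested was -0.0043. The adjusted p-value by limma was 0.9998 for each.

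The intervals show what these rats could and could not exclude under this fit. Their upper ends correspond to ENZ levels of 1.31-fold (Mt-nd3) to 1.49-fold (Mt-nd6) of vehicle, and their lower ends to 0.868-fold (Mt-nd3) to 0.918-fold (Mt-nd6). With no filter on low values the fold changes were the same but the intervals wider, up to 1.52-fold (Mt-nd2) and down to 0.824-fold (Mt-nd4). A single rat carried much of the difference: without ENZ rat G2_152 the median over the 7 genes was 0.06, and without ENZ rat G2_62 it was 0.23. Under quantile normalization Mt-nd5 was at -0.012, while the other 6 genes stayed higher in ENZ.

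With rat G1_80 included (10 vehicle rats), 0 of the 7 genes again passed an adjusted p-value of 0.05 by limma, nor did any of the 13844 genes tested (0%). Without adjustment the counts were 0 of the 7 and 38 of all genes (0.274%). All 7 fold changes were above 0, where 71.5% of all genes were, with a median over all genes of 0.16. The difference of Mt-nd1 went from 0.14 to 0.46 (standard error 0.40, interval -0.39 to 1.31, adjusted p = 0.786 by limma) and that of Mt-nd2 from 0.18 to 0.48 (standard error 0.40, interval -0.37 to 1.34, adjusted p = 0.786 by limma). Mt-nd5 went the other way, from 0.15 to 0.09. The remaining members lay between 0.08 (Mt-nd3) and 0.30 (Mt-nd6) with this rat.

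**Figure D2:**
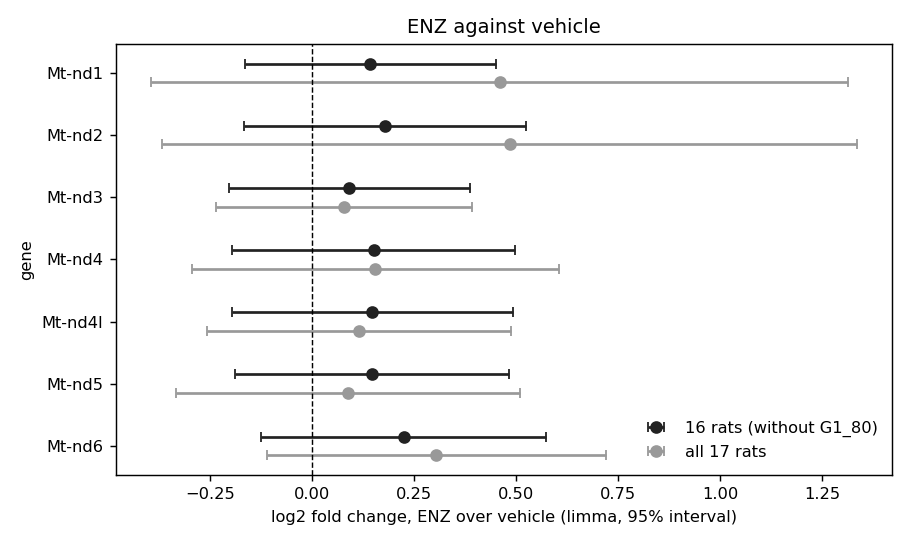
Log2 fold change of ENZ over vehicle (x axis) for each gene with its limma 95% interval, in black for 16 rats and in grey for all 17 rats. Every interval spans 0, and the grey intervals of Mt-nd1 and Mt-nd2 reach 1.31 and 1.34 once rat G1_80 enters.

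Variation between rats was large for genes this abundant. The SD of the log2 value over the 16 rats was 0.29 for Mt-nd1, 0.30 for Mt-nd3, 0.33 for Mt-nd2, Mt-nd4 and Mt-nd5, 0.36 for Mt-nd4l and 0.38 for Mt-nd6. The median SD over all 13853 genes tested was 0.20. Among the 867 genes with a median of at least 1000 normalized counts, 93.7% (for Mt-nd1) to 98.04% (for Mt-nd6) had a smaller SD. Within groups the SD was of like size, 0.31 in vehicle and 0.26 in ENZ for Mt-nd1, and 0.36 and 0.39 for Mt-nd6.

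Nearly all of this variation was shared. Over the 16 rats, the Pearson correlation of log2 values was 0.87 to 0.995 for the 21 pairs of members, with a median of 0.957. Mt-nd2 with Mt-nd4 was the closest pair (r = 0.995, Spearman rho = 0.982). For Mt-nd4l with Mt-nd4, which share an mRNA, r was 0.958 and rho 0.968. Mt-nd4l with Mt-nd6 was the loosest pair (r = 0.871, rho = 0.809). Spearman correlations ranged from 0.803 to 0.982.

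Permutation p-values for Pearson's r were 1e-05, the smallest that 100000 resamples can give, for every pair but Mt-nd4l with Mt-nd6 (2e-05). Adjusted over 28 relations (the 21 pairs and the 7 relations with depth given below), p-values of the pairs were 2.67e-05 or lower for r and 0.00048 or lower for rho. With the 2 rats farthest from the median left out of each pair, r was 0.816 to 0.994. Size factors are shared by all genes of a rat, and with each rat scaled instead by its reads on all other genes the 21 values of r were 0.857 to 0.995.

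Within the 9 vehicle rats, r was 0.875 to 0.998 (adjusted exact permutation p = 0.00589 or lower), and within the 7 ENZ rats it was 0.866 to 0.994 (adjusted exact permutation p = 0.0267 or lower). By rank fewer pairs passed within a group. Spearman's rho was 0.667 to 1 in vehicle, where 13 of 21 pairs passed (largest adjusted exact permutation p = 0.0687), and 0.5 to 1 in ENZ, where 8 of 21 passed (largest adjusted exact permutation p = 0.356). In ENZ the relation rested on rats G2_152 and G2_62 for part of the pairs. Without the 2 farthest rats, r over the 5 left was -0.03 for Mt-nd2 with Mt-nd6 but 0.996 for Mt-nd4 with Mt-nd4l, with a median of 0.63 over the pairs. In vehicle the same step gave 0.808 to 0.997.

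**Figure D3:**
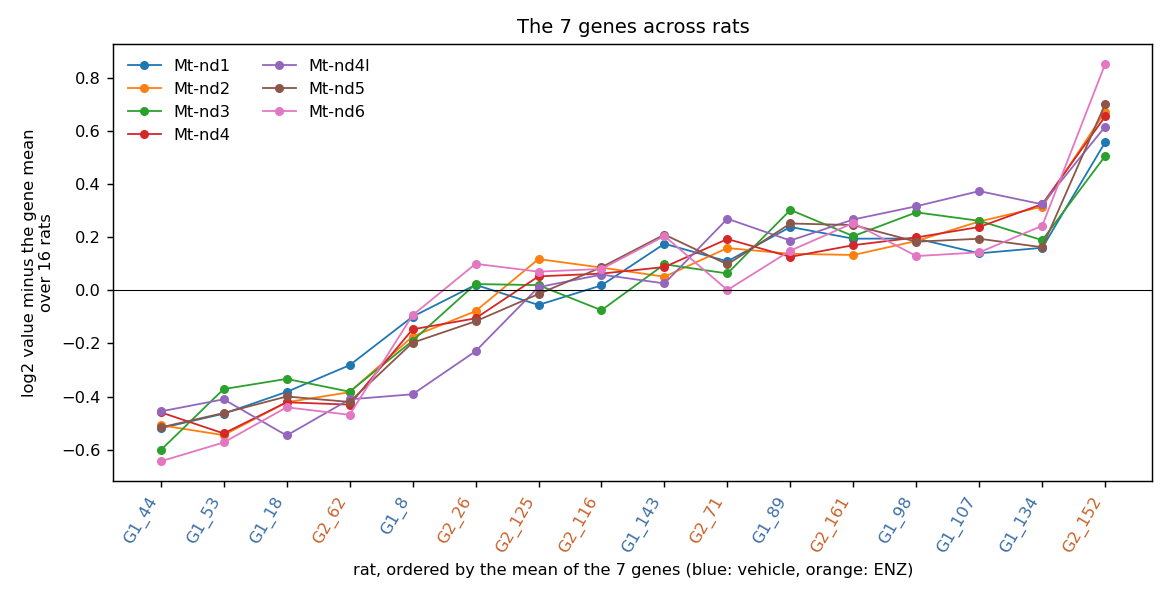
Log2 value of each gene minus its mean over the 16 rats (y axis), with rats ordered along the x axis by the mean of the 7 genes and their names in blue (vehicle) or orange (ENZ). The 7 lines rise together from rats G1_44, G1_53 and G1_18 to rat G2_152, both groups are spread along the order, and Mt-nd4l and Mt-nd6 stray most from the other lines.

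The mean log2 value of the 7 genes ran from 13.9 in vehicle rat G1_44 to 15.1 in ENZ rat G2_152, a 2.27-fold range, and its SD over rats was 0.32. Once this mean was taken away, SDs of 0.05 remained for Mt-nd2, Mt-nd4 and Mt-nd5, 0.07 for Mt-nd1, 0.08 for Mt-nd3, 0.10 for Mt-nd6 and 0.11 for Mt-nd4l. Counting error would give between 0.0054 (Mt-nd4) and 0.016 (Mt-nd3), so the small member-specific variation exceeded it for all 7. The largest deviation downward was -0.21 for Mt-nd4l in vehicle rat G1_8, and the largest upward was 0.20 for Mt-nd6 in ENZ rat G2_152.

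Over the 16 rats, depth was negatively related to the level of the 7 genes, past the threshold for Mt-nd6 by rank and for no other member. The correlation of log10 reads with the log2 value was -0.47 (Mt-nd2) to -0.41 (Mt-nd1) over 16 rats, with adjusted permutation p-values of 0.0849 to 0.111. Spearman's rho was -0.56 for Mt-nd6, with an unadjusted permutation p of 0.0267, the smallest of the 7 (adjusted 0.034). For the others rho was between -0.46 and -0.36, with adjusted permutation p-values of 0.0859 or higher. Leaving out rats G1_8 and G1_134, the 2 farthest in depth, gave r between -0.45 and -0.31. The adjusted value for Mt-nd6 was over 0.05 without vehicle rat G1_44 (rho = -0.53, adjusted permutation p = 0.0549) and with rat G1_80 (rho = -0.30, adjusted permutation p = 0.263). With rat G1_80, Mt-nd5 had the smallest p-value by rank instead (rho = -0.51, permutation p = 0.0387, adjusted 0.0493). Pearson's r then ran from -0.49 (Mt-nd5) to 0.82 (Mt-nd1), with an adjusted permutation p under 0.05 for 0 of 7. Over all genes tested, r with depth was -0.39 at the 5th and 0.40 at the 95th percentile, and 3.35% lay below the median member. By group, r was -0.66 to -0.50 in the vehicle rats (adjusted exact permutation p = 0.0689 or higher) and -0.12 to 0.08 in the ENZ rats (adjusted exact permutation p = 0.971). The difference between groups was not tested, nor was the part of depth in the variation of the 7 genes.

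**Figure D4:**
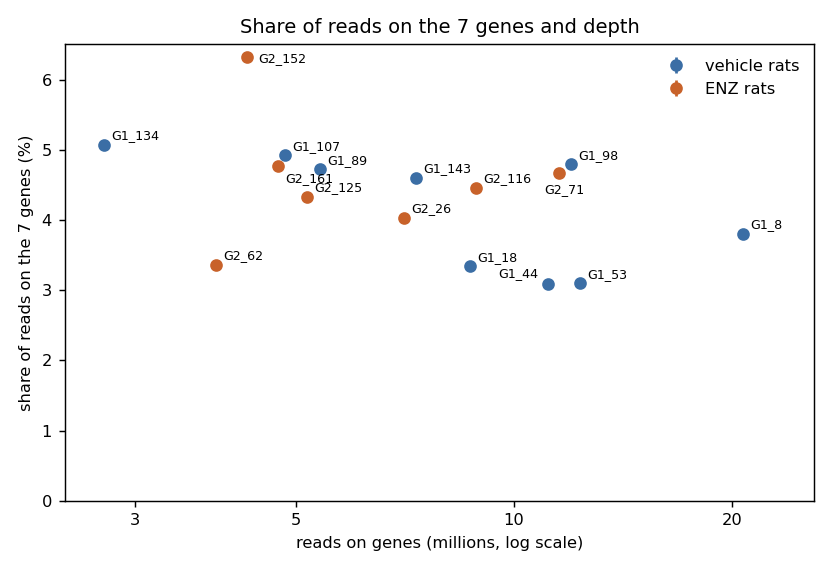
Share of reads on the 7 genes (%, y axis from 0) against reads on genes (log scale) for 9 vehicle rats in blue and 7 ENZ rats in orange, with Wilson 95% intervals smaller than the points. The 3 lowest vehicle rats (G1_44, G1_53 and G1_18) have 8710997 reads or more, while the lowest and the highest ENZ rat (3.36% in G2_62, 6.32% in G2_152) have 3880391 and 4290287.

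Hba2, a marker of blood, showed no clear relation to the members. Its log2 value had r = -0.26 (permutation p = 0.327) and rho = 0.06 (permutation p = 0.814) with the mean log2 value of the 7 genes over 16 rats, and r = -0.06 without rats G1_44 and G1_8. Rat G1_44 had both the highest Hba2 and the lowest mean of the members, and the part of blood in this was not tested.

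The genes most like the members in pattern were looked for among all other genes tested. ENSRNOG00000030371 was the closest (r = 0.986 with the mean log2 value of the 7 genes over 16 rats), followed by ENSRNOG00000034234 (r = 0.983). The available gene table did not name these genes, so whether they are mitochondrially encoded as well was not determined. Of the 13846 other genes, 6 had r over 0.95 and 12 had r over 0.9, and the median r was -0.03. Each member had r of 0.940 (Mt-nd4l) to 0.986 (Mt-nd5) with the mean of the other 6.

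How reads divided among the 7 genes was nearly fixed across the 16 rats. Mt-nd1 took 21.6% ± 0.98 (SD, n = 16) of the reads on the members, Mt-nd2 25.7% ± 0.74, Mt-nd3 3.02% ± 0.18, Mt-nd4 26.4% ± 0.67, Mt-nd4l 3.84% ± 0.29, Mt-nd5 15.9% ± 0.58 and Mt-nd6 3.57% ± 0.25. In relative terms the shares of Mt-nd4l and Mt-nd6 varied most. Between ENZ and vehicle, these shares differed by -0.20 (Mt-nd1) to 0.40 (Mt-nd2) percentage points. The smallest of 7 unadjusted two-sided exact permutation p-values were 0.144 for Mt-nd3 (2.94% ± 0.17 in ENZ, n = 7, and 3.08% ± 0.18 in vehicle, n = 9) and 0.173 for Mt-nd6 (3.67% ± 0.31 and 3.49% ± 0.17). With 13 rats, vehicle rats G1_80, G1_44, G1_134 and G1_8 were left out. The share of Mt-nd3 was then 2.94% ± 0.17 in ENZ (n = 7) and 3.18% ± 0.12 in vehicle (n = 6). The exact permutation p was 0.0198, unadjusted among 7 tests in this set of rats. However, rats G1_44, G1_134 and G1_8 had the lowest shares of Mt-nd3 among the 9 vehicle rats (2.82%, 2.88% and 2.95%). Leaving them out raised the vehicle mean from 3.08% to 3.18%, so the smaller p-value came with this choice of rats. With rat G1_80 added to the 16 rats, the exact permutation p was 0.0848, and no adjustment covered the sets of rats.

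Vehicle rat G1_80 broke this pattern. Its 1359 reads on the 7 genes made 4.07% of all its reads (Wilson 95% interval 3.86% to 4.28%), within the range of the other rats. Their division was different: Mt-nd1 took 3.68% (2.80% to 4.82%) where the other 16 rats had 20.2% to 23.2%, and Mt-nd2 took 4.71% (3.71% to 5.97%) where they had 24.5% to 27.2%. Mt-nd4 at 39.4% (36.8% to 41.99%) and Mt-nd5 at 36.6% (34.1% to 39.2%) lay above their ranges of 25.4% to 27.7% and 14.9% to 16.9%. Mt-nd3 at 5.15% (4.10% to 6.46%) and Mt-nd4l at 7.36% (6.09% to 8.87%) were also above the other rats. Mt-nd6, at 3.09% (2.29% to 4.15%), overlapped their range of 3.23% to 4.10%.

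On the scale of normalized counts, Mt-nd1 in rat G1_80 was at 5168 (50 reads), 0.108 times the mean of the 9 other vehicle rats, and Mt-nd2, at 6615 (64 reads), was 0.118 times theirs. The members from Mt-nd3 to Mt-nd5 were near that mean or above it, at 1.07 times for Mt-nd3 (70 reads), 0.95 for Mt-nd4 (535 reads), 1.21 for Mt-nd4l (100 reads) and 1.47 for Mt-nd5 (498 reads). Mt-nd6, with 42 reads, was at 0.563 times. Along the mitochondrial genome Mt-nd1 and Mt-nd2 are neighbours near the start of the heavy-strand message, and Mt-nd3, Mt-nd4l, Mt-nd4 and Mt-nd5 follow each other further on. Whether position has a part in the values of rat G1_80 was not tested. The 6 other genes with r over 0.95 to the members were all low in rat G1_80, at 0.0933 to 0.147 times their mean in the other 16 rats (9 to 239 reads). ENSRNOG00000030371, the closest of them, had 7442 normalized counts (72 reads) against a mean of 61827. ENSRNOG00000043866 (r = 0.921), chosen after its values were seen, was high instead, at 77622 (751 reads) against a mean of 28110. Low values in this rat were thus not particular to Mt-nd1 and Mt-nd2. In this single library the low members and the others cannot be checked against a replicate.

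**Figure D5:**
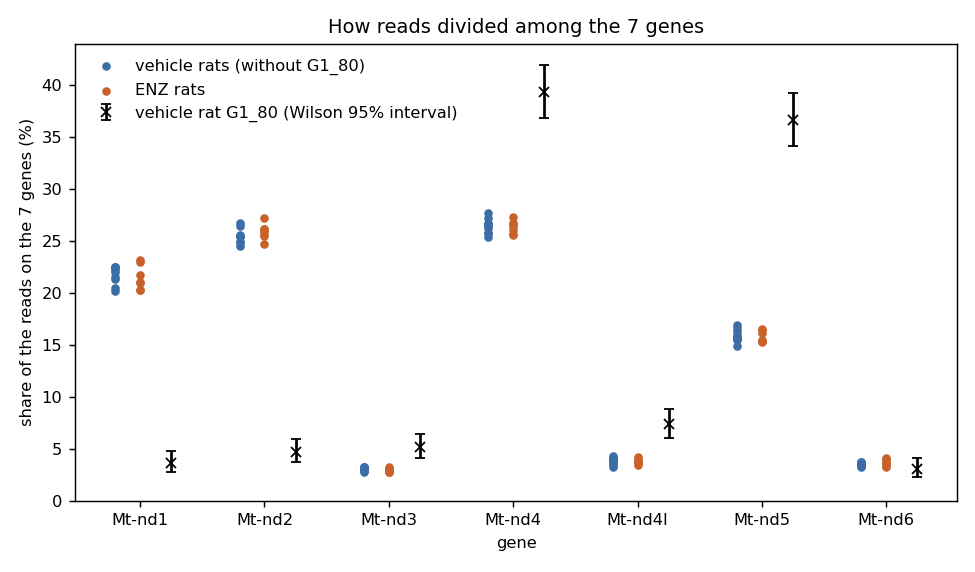
Share of the reads on the 7 genes that each gene takes (%, y axis from 0), for vehicle rats without G1_80 in blue, ENZ rats in orange and vehicle rat G1_80 as black crosses with Wilson 95% intervals. The 16 rats form tight columns, while rat G1_80 is far below them for Mt-nd1 (3.68%) and Mt-nd2 (4.71%) and far above for Mt-nd4 (39.4%) and Mt-nd5 (36.6%).

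With rat G1_80 included, the co-variation was weaker by Pearson's r and, to a lesser degree, by rank. Over 17 rats, r ranged from -0.04 to 0.993 over the pairs, with a median of 0.76, and 13 of 21 pairs had an adjusted permutation p-value under 0.05. Spearman's rho ranged from 0.561 to 0.949, with a median of 0.836, against 0.803 to 0.982 and 0.885 in the 16 rats. By rank 21 of 21 pairs passed (adjusted permutation p = 0.0273 or lower). Because ranks limit the pull of a single rat, that count says little about rat G1_80. Between Mt-nd1 and Mt-nd4l, r was 0.136 with it (permutation p = 0.692) and rho was 0.713 (permutation p = 0.00176), against 0.91 and 0.841 without it.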

How the data were processed

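RNA-seq libraries (TruSeq, polyadenylated RNA by that kit's usual protocol) of 17 rats, 1 per rat, were analysed. The authors trimmed reads, aligned them to rn5 with STAR (2.4.0a) and counted them per gene with featureCounts (1.4.4). The deposited values are a normalized signal, read counts divided by a size factor per rat (DESeq2 in the submitters' processing notes). Reads were recovered as whole multiples of the smallest step, within 0.1 of a whole number for 100% of values above 0. No library was a duplicate (lowest chi-square per degree of freedom between libraries 1.79). ENZ was compared with vehicle in R (4.3.3) with limma (3.58.1) across all genes with a median of at least 5, without covariates, on log2(value + 1), with Benjamini-Hochberg adjustment. The added 1 barely alters genes this abundant. Single genes were compared by exact permutation, enumerated with numpy (2.4.6) under Python (3.11.15). edgeR (4.0.16) and DESeq2 (1.42.0) were run on recovered reads as alternatives. The fits were tested on simulated data. Members, gene lists and settings were chosen with earlier results of these data known. Named genes were the 7 members, Hba2 and the 2 genes closest in pattern. The available gene table matched 0 identifiers, so nuclear complex I genes, other mitochondrial genes and cell type markers were not analysed by name. Genes given by identifier only may be among them. The labels give no batch, nor the maze squads and housing pairs that the paper describes, so these were not modelled.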

Additional observations from a re-analysis of the deposited data

Results flagged for a closer look

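Rats at the end of their group were screened with Dixon's ratio (the distance to the next rat over the whole range) at its 95% critical value. This was applied to 15 measures (log2 value and share of member reads for each gene, and the share of all reads on the 7 genes) in the 7 ENZ rats, the 10 vehicle rats and the 9 vehicle rats without G1_80. Of 45 combinations, 8 met it, and all 8 were rat G1_80 among the 10 vehicle rats. Chance would give about 2.25 if the combinations were separate, which they are not. The members varied together, the shares of a rat add up to a fixed total, and the sets of vehicle rats overlap. Rat G1_80 had also been set apart for its depth beforehand, so the 8 describe that library and are no excess of separate findings. None was met in ENZ or in the 9 vehicle rats.

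In rat G1_80 the log2 value of Mt-nd1 was 12.3, the next lowest vehicle rat being at 15.1, and that of Mt-nd2 was 12.7, the next at 15.3. Of its reads on the 7 genes, 3.68% fell on Mt-nd1 (next lowest 20.2%) and 4.71% on Mt-nd2 (next lowest 24.5%). Mt-nd3 took 5.15% (next highest 3.30%), Mt-nd4 took 39.4% (next highest 27.7%), Mt-nd4l took 7.36% (next highest 4.27%) and Mt-nd5 took 36.6% (next highest 16.9%). This library held 33422 reads, and the part of its low depth in the altered shares was not tested.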

How the results depend on the processing

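The 7 fold changes were recomputed under 31 other settings. Of these, the setting without rats G1_80 and G1_44 is the same fit as leaving rat G1_44 out of the 16, so that fit entered the tally again. Direction and lack of significance were kept in 216 of 217 recomputed values, with a smallest adjusted p-value of 0.786. The exception was Mt-nd5 under quantile normalization, at -0.012 (the cause was not tested). Fits that each left out 1 of the 16 rats gave a median over the 7 of 0.06 to 0.23. With 13 rats, without vehicle rats G1_80, G1_44, G1_134 and G1_8, the 7 lay between 0.0097 (Mt-nd3) and 0.19 (Mt-nd6). That set gives the mean counts of the genes in the study's short list of top genes to within 2.6e-08%. It holds 6 vehicle and 7 ENZ rats, while the paper states 7 per group, and this difference was not resolved.

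Genes past an adjusted p-value of 0.05 numbered 0 by limma and by every alternative except DESeq2 with all 17 rats, which called 5 of 20910. At an unadjusted p-value under 0.05, the 324 genes became 38 with all 17 rats by limma, 95 with them by DESeq2, 625 with no filter and 201 with a median of at least 50. Of the 324, 172 were lower in ENZ, against 267 of 352 when scaled to total reads, 234 of 338 when scaled to reads outside the members, and 147 of 340 with quantile normalization.

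The median correlation over pairs, 0.957, was 0.885 by Spearman, 0.760 with all 17 rats, 0.918 with these after the 2 farthest rats were left out, and 0.631 in ENZ likewise. Without rat G1_44 and the 2 farthest rats, added after the data were seen, it was 0.921. Pairs past the threshold by Pearson were 21, and 13 with all 17 rats. By Spearman they were 21 in both, but 13 within vehicle and 8 within ENZ. The ENZ minus vehicle difference in share of member reads, also compared across sets of rats after the data were seen, turned from -0.20 to 1.61 percentage points for Mt-nd1 with rat G1_80, and from -0.10 to 0.27 for Mt-nd4 with 13 rats.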
